A study of Homo sapiens with 6 samples.

Results

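The nuclear genes of respiratory complexes II to V were followed in MDA-MB-231 cells, a mesenchymal triple-negative human breast cancer line, after knockdown of BYSL, a factor of small ribosomal subunit assembly. Members were the protein-coding genes outside the mitochondrial genome whose symbols begin with SDHA to SDHD, UQCR, COX and a digit, or ATP5. These were 60 of the 29538 genes counted, and 57 of them passed the filter on low counts that left 16412 genes for testing. By complex, 8 of 8 listed members of complex II were tested, 9 of 9 of complex III, 21 of 23 of complex IV and 19 of 20 of complex V. The rule takes assembly factors that share a prefix with the subunits, and it misses subunits named otherwise, such as cytochrome c1 (CYC1).

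Complex II, succinate dehydrogenase, passes electrons from succinate to ubiquinone and is encoded entirely in the nucleus. Complex III moves electrons from ubiquinol to cytochrome c, and complex IV, cytochrome c oxidase, moves them on to oxygen; both pump protons and hold subunits of mitochondrial and of nuclear origin. Complex V, the ATP synthase, uses the proton gradient to make ATP, with a catalytic F1 head and a membrane Fo part whose c ring turns as protons pass.

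The siBYSL group was 3 cultures transfected with SI-BYSL-Homo-838, a single siRNA against BYSL, and the siNC group was 3 cultures given a negative-control siRNA. Each well received 160 pmol siRNA with 4 µL Lipofectamine RNAiMAX, fresh medium came at 6 h, and cells were collected at 48 h. Strand-specific poly(A) RNA-seq was counted per gene. All cultures came from a single line, a single siRNA was used, and the labels do not give the sequence of the control siRNA, so an effect of this siRNA other than through BYSL cannot be told apart from the knockdown.

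The libraries held 27754883 to 32088817 counts in siBYSL and 28606048 to 30476744 in siNC. BYSL itself stood at 15.9, 15.7 and 17.4 CPM (read counts scaled to a common library size, with TMM factors) in siBYSL, against 104.1, 94.5 and 101.3 CPM in siNC, a log2 fold change of -2.61 ± 0.067 (SE; adjusted p 9.4e-09, edgeR). The mesenchymal markers VIM and AXL were high, at 2085 and 630.4 CPM in siBYSL and 2404 and 895.2 CPM in siNC. Both were lower in siBYSL, with log2 fold changes of -0.21 and -0.51. CD44, also expected high in this line, went the other way. It had 893.9 CPM in siBYSL and 781.7 CPM in siNC, a log2 fold change of 0.19. The epithelial genes CDH1 and EPCAM were low but present, at 9.18 and 20.9 CPM in siBYSL and 4.48 and 14.4 CPM in siNC, with log2 fold changes of 1.04 and 0.54. The hormone receptor gene ESR1 had 0 to 3 raw counts per library, as did the hepatocyte gene ALB. The leukocyte gene PTPRC had 0 to 9 counts per library. ERBB2, expected low in this line, stood at 61.9 CPM in siBYSL and 51.3 CPM in siNC. PECAM1, a marker of other cell types, stood at 6.48 and 5.32 CPM. The third siBYSL library stood apart: chi-square per degree of freedom was 22.1 and 13.6 between it and the other siBYSL libraries, against 3.44 between those and 2.49 to 4.71 between siNC libraries. Results are therefore given with and without it where it matters.

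The siRNA strands, given in the labels, are shown because the antisense strand guides silencing and can also pair through its seed with other 3′ UTRs. Capitals mark bases 2 to 8 of the antisense strand, 5′ to 3′.
siBYSL antisense: uAUUCAGCaacgucaucuctt
siBYSL sense: gagaugacguugcugaauatt

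Among the members, with all 6 libraries, a small group of ATP synthase genes fell and most other genes did not pass the test. At an adjusted p under 0.05, siBYSL was higher in 3 and lower in 8 of 57 tested members, which is 19.3%, where 36.9% of all 16412 genes were called (18.5% higher, 18.4% lower). With libraries scaled by their totals alone, 7 members were higher and 6 lower, beside 4106 genes higher and 1989 lower in the whole table. The median log2 fold change was -0.056 over members, 0.007 over all genes tested and -0.006 over tested protein-coding genes. Members ran from -0.94 to 0.27, with 34 below 0 and 23 above. The groups did not overlap in 15 members, with siBYSL above siNC in 5 and below it in 10 (24.7% and 24.9% of all genes tested). Complex V held 7 of the 11 called members, 6 of them lower; this is 36.8% of its 19 tested members, close to the share over all genes, and it counts ATP5MF and its overlapping read-through gene separately. Complex IV held 3, complex II 1 and complex III 0.

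**Figure D1:**
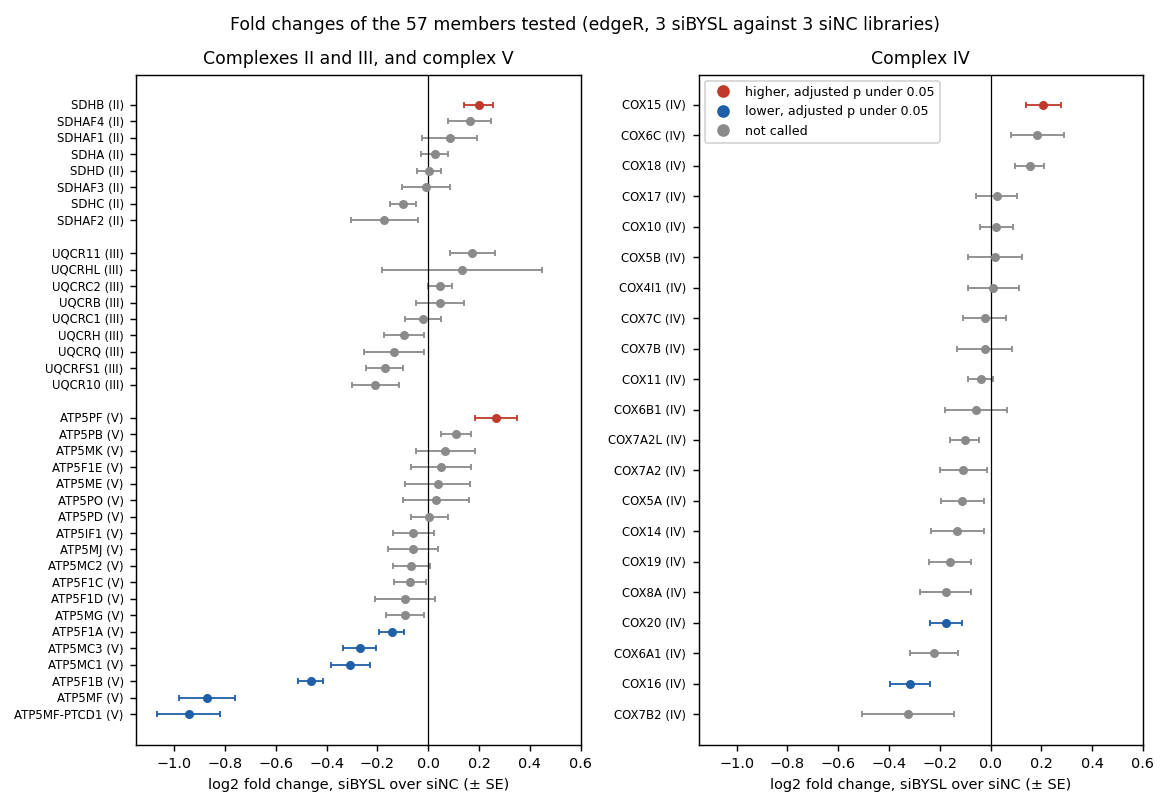
Log2 fold change of each tested member, siBYSL over siNC, with its SE from the edgeR fit of 3 siBYSL and 3 siNC libraries; red and blue points passed the adjusted p threshold upward and downward, grey points did not. The 2 lowest points, ATP5MF-PTCD1 at -0.94 and ATP5MF at -0.87, stand well below the rest, and 46 of 57 points are grey.

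The largest falls were in ATP5MF, which encodes subunit f of the Fo part. ATP5MF (ENSG00000241468.8; GRCh38 chromosome 7, 99448475 to 99466331, minus strand) had 43.8, 54.4 and 64.0 CPM in siBYSL, against 106.9, 93.7 and 96.2 CPM in siNC. Every siBYSL library lay below every siNC library. The log2 fold change was -0.87 ± 0.11 (SE; adjusted p 0.000171), and it ran from -1.01 to -0.74 when each library was left out in turn, with the call kept each time.

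ATP5MF-PTCD1 (ENSG00000248919.7; chromosome 7, 99419749 to 99466197, minus strand) is annotated as a read-through gene that joins ATP5MF to its neighbour PTCD1, a mitochondrial RNA-binding protein. It had 15.8, 17.8 and 23.1 CPM in siBYSL, against 39.9, 32.6 and 36.2 CPM in siNC. The groups were again apart, with siBYSL 3 the nearest to siNC. Its log2 fold change of -0.94 ± 0.12 (adjusted p 0.000196) kept its call without any single library. The read-through gene stood at 0.349 ± 0.019 of the ATP5MF count in siBYSL and 0.366 ± 0.015 in siNC (SD, n = 3 each; exact two-sided permutation p 0.3, where 0.1 is the smallest possible). The 3 genes overlap on the same strand, so their counts may share reads and are uncertain one by one. PTCD1 had 25.5, 26.3 and 26.9 CPM in siBYSL and 30.4, 29.1 and 29.8 CPM in siNC, a log2 fold change of -0.18 ± 0.060 (adjusted p 0.0327). PTCD1 thus fell far less on the log2 scale than either gene named for ATP5MF, though the difference itself was not tested.

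ATP5MF was also the called member with the guide-seed match. The heptamer GCTGAAT, the reverse complement of antisense bases 2 to 8, was found in the longest annotated 3′ UTR of 5 of 57 tested members (8.77%), against 1549 of 13072 tested genes with a 3′ UTR (11.85%). The median 3′ UTR was 548 bases in members and 1354.5 bases over those genes. The sites are shown because they are the places where this guide could pair, with the heptamer in capitals, from GENCODE 29 on GRCh38, each read on the strand of its gene.
ATP5MF, exon 4 of 4, chr7:99458232-99458261, minus: tctcaatcgttGCTGAATcctttcatatcc
SDHAF2, exon 4 of 4, chr11:61446564-61446593, plus: cagcctcctgaGCTGAATccttcaaaggca
UQCRFS1, exon 2 of 2, chr19:29205744-29205773, minus: catgctgttttGCTGAATggatacggcaga
SDHC, exon 6 of 6, chr1:161366744-161366773, plus: atatgaaatatGCTGAATttttaagttttt
SDHC, exon 6 of 6, chr1:161368058-161368087, plus: tgagaaaattaGCTGAATagccactacttt

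UQCRB, the fifth gene with a match, is named without its sequence. The ATP5MF heptamer begins at base 77 of a 137-base 3′ UTR, while those of the other genes lie further in, at base 504 of 1458 in SDHAF2, 1786 of 2227 in UQCRFS1, 2495 of 5135 in UQCRB, and 4322 and 5636 of 12907 in SDHC. The annotated 3′ UTR of ATP5MF-PTCD1 held no match, nor did those of the other 9 called members. Log2 fold changes of the remaining matched genes were -0.17 for SDHAF2, -0.17 for UQCRFS1, -0.10 for SDHC and 0.05 for UQCRB, and none of these 4 passed the test. In ATP5MF the letters cgtt just before the heptamer also match the siRNA, whose sense strand reads cguugcugaau. This is the longest match among the sites shown. A match is a description of letters, and whether it bears on ATP5MF was not tested.

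The F1 head showed a difference between its 2 large subunits. ATP5F1B (ENSG00000110955.9; chromosome 12, 56638175 to 56646068, minus strand) encodes the catalytic β subunit. It had 611.6, 626.2 and 622.0 CPM in siBYSL, against 858.6, 849.9 and 856.1 CPM in siNC. The values were tight within each group and far apart between them. ATP5F1B averaged 619.9 ± 7.49 CPM in siBYSL and 854.9 ± 4.46 CPM in siNC (SD, n = 3 each), a log2 fold change of -0.46 ± 0.049 (SE; adjusted p 4.7e-05), which stayed between -0.47 and -0.45 with any library left out.

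ATP5F1A, the α subunit that alternates with β around the head (chromosome 18, 46080248 to 46104334, minus strand), had 560.7, 554.3 and 563.0 CPM in siBYSL and 629.6, 608.9 and 615.4 CPM in siNC. Its fall was smaller, with a log2 fold change of -0.14 ± 0.049 (adjusted p 0.0388). That call was lost without siBYSL 1, siBYSL 2 or any siNC library, with adjusted p from 0.062 to 0.15, and under library totals or upper-quartile factors, with log2 fold changes of -0.07 and -0.10. The ratio of ATP5F1B to ATP5F1A counts was 1.091, 1.13 and 1.105 in siBYSL, against 1.364, 1.396 and 1.391 in siNC (exact two-sided permutation p 0.1, the smallest that 3 against 3 allows). This ratio sits within each library and so does not depend on how libraries were scaled. The γ, δ and ε subunits of the head and its stalk, ATP5F1C, ATP5F1D and ATP5F1E, had log2 fold changes of -0.07, -0.09 and 0.05 and were not called. Without siBYSL 3, ATP5F1C and ATP5F1D were called lower.

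Subunit c, the repeated unit of the Fo ring, is made from 3 nuclear genes whose mature proteins are the same. ATP5MC1 (chromosome 17, 48892765 to 48895871, plus strand) had 80.9, 91.7 and 101.4 CPM in siBYSL, against 119.0, 108.0 and 112.0 CPM in siNC. ATP5MC3 (chromosome 2, 175176258 to 175184607, minus strand) had 208.6, 226.0 and 249.3 CPM in siBYSL, against 282.2, 264.2 and 278.5 CPM in siNC. Both genes fell without overlap of the groups, with siBYSL 3 the highest of its group in each. Log2 fold changes were -0.31 ± 0.077 for ATP5MC1 (adjusted p 0.00984) and -0.27 ± 0.067 for ATP5MC3 (adjusted p 0.0088). Leaving out siNC 1 took ATP5MC1 to an adjusted p of 0.051, and no single library ended the ATP5MC3 call. The third gene, ATP5MC2, was not called, at 136.7 CPM in siBYSL and 143.1 CPM in siNC on average. Without siBYSL 3, ATP5MC2 was called lower as well, so its difference in call from the other 2 depends on that library.

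Summed over the 3 genes, subunit c messages came to 413.9, 451.1 and 503.1 CPM in siBYSL, against 551.6, 514.4 and 527.3 CPM in siNC. ATP5MC2 supplied 29.97% ± 0.37 of them in siBYSL and 26.95% ± 0.90 in siNC (SD, n = 3 each). For the sum and the share alike the groups did not overlap, and each exact two-sided permutation p was 0.1, the smallest possible.

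In the peripheral stalk that holds the head still, 1 gene was higher. ATP5PF, coupling factor 6 (chromosome 21, 25716503 to 25735673, minus strand), had 100.4, 109.4 and 128.8 CPM in siBYSL, against 97.5, 88.9 and 95.2 CPM in siNC. The lowest siBYSL library was close to the highest siNC library. The log2 fold change was 0.27 ± 0.083 (adjusted p 0.0278), and the call was lost without siBYSL 2 or any siNC library, with adjusted p from 0.0559 to 0.116. The other stalk genes ATP5PB, ATP5PD and ATP5PO had log2 fold changes of 0.11, 0.00 and 0.03 and were not called, nor were the small Fo subunits ATP5ME, ATP5MG, ATP5MJ and ATP5MK, between -0.09 and 0.07. ATP5IF1, which inhibits the enzyme when it runs in reverse, was at -0.06 and not called. Without siBYSL 3, ATP5MG, ATP5MJ and ATP5IF1 were called lower. ATP5MGL, a copy of ATP5MG, was not tested, with raw counts of 0, 0 and 2 in siBYSL and 0, 1 and 0 in siNC.

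**Figure D2:**
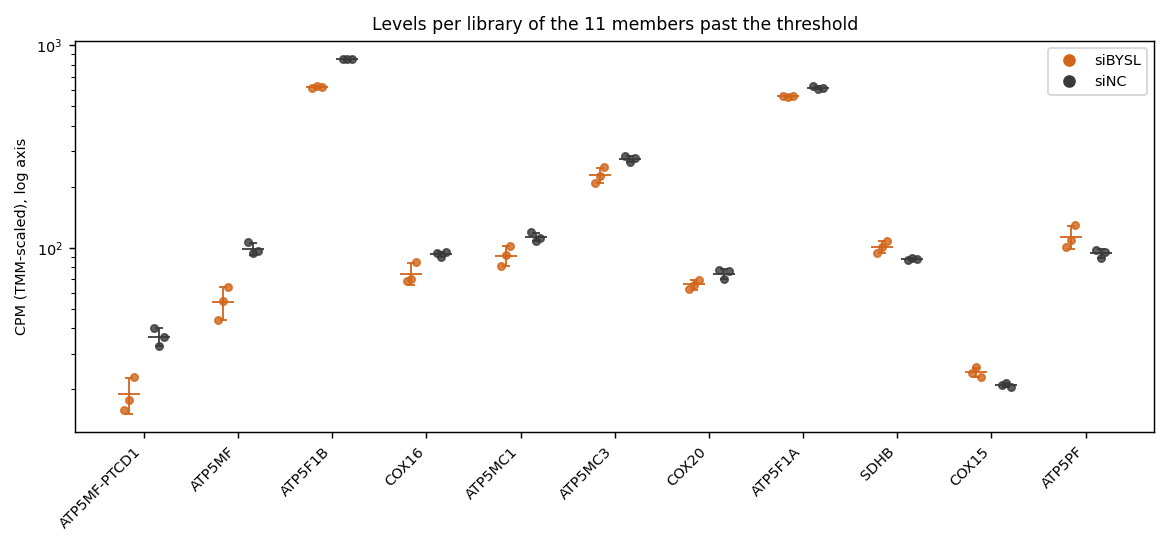
CPM of the 11 called members in each library on a log axis, with siBYSL points left of siNC points and bars for mean ± SD (n = 3 each). The groups do not overlap in any of the 11; ATP5F1B shows the tightest points, at 619.9 CPM in siBYSL and 854.9 CPM in siNC.

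Complex II held 1 called member. SDHB, the iron-sulfur subunit (ENSG00000117118.10; chromosome 1, 17018722 to 17054170, minus strand), had 94.5, 100.5 and 107.8 CPM in siBYSL, against 86.8, 88.8 and 88.2 CPM in siNC. All siBYSL libraries were above all siNC libraries. SDHB rose by a log2 fold change of 0.20 ± 0.057 (adjusted p 0.0195), a call lost without siBYSL 2 or any siNC library, with adjusted p from 0.0623 to 0.0808. The flavoprotein SDHA and the membrane anchors SDHC and SDHD had log2 fold changes of 0.02, -0.10 and 0.00 and were not called. Of the assembly factors SDHAF1 to SDHAF4, 0 were called by edgeR, DESeq2 or limma-voom, and 0 had an unadjusted p under 0.05. The lowest, SDHAF2, which helps attach the flavin cofactor to SDHA, had 13.1, 13.5 and 19.0 CPM in siBYSL, against 18.6, 16.2 and 16.5 CPM in siNC (adjusted p 0.332). Its first and second siBYSL libraries lay below siNC and the third above it, and without siBYSL 3 it was called lower.

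Complex III had 0 called among its 9 tested members in edgeR, with 2 at an unadjusted p under 0.05 (UQCR10 and UQCRFS1) and 0 called by DESeq2 or limma-voom. Other edgeR settings did call some of them. Without a filter on low counts, UQCR10 and UQCRFS1 were lower. Without siBYSL 3, UQCR10, UQCRFS1, UQCRH and UQCRQ were lower. Log2 fold changes ran from -0.21 to 0.17. UQCR10, a small subunit (chromosome 22, 29767369 to 29770413, plus strand), had 89.4, 99.8 and 121.9 CPM in siBYSL, against 122.1, 115.7 and 121.5 CPM in siNC. Here siBYSL 3 lay among the siNC libraries while the other siBYSL libraries lay below them, and the log2 fold change was -0.21 ± 0.093 (adjusted p 0.103). UQCR11, another small subunit (chromosome 19, 1597172 to 1605490, minus strand), had 34.1, 37.3 and 44.1 CPM in siBYSL and 35.1, 32.9 and 34.3 CPM in siNC, with overlap and a log2 fold change of 0.17 ± 0.088 (adjusted p 0.145). The core proteins UQCRC1 and UQCRC2 were at -0.02 and 0.05, and the Rieske iron-sulfur protein UQCRFS1 was at -0.17. None of these was called. The UQCRH copy UQCRHL was close to the filter, with 2.25, 4.11 and 2.19 CPM in siBYSL and 1.57, 3.85 and 2.46 CPM in siNC.

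In complex IV the called members were assembly factors. COX16, which helps insert copper into the mitochondrially encoded subunit COX2 (ENSG00000133983.16; chromosome 14, 70325081 to 70359731, minus strand), had 68.3, 69.9 and 85.0 CPM in siBYSL, against 93.8, 89.5 and 94.9 CPM in siNC. It fell by 0.32 on the log2 scale (SE 0.079, adjusted p 0.00901), and the call held without any single library. The annotation also holds a read-through gene, SYNJ2BP-COX16, on the same strand, so its count may include reads of that transcript. COX20, a chaperone of newly made COX2 (chromosome 1, 244835322 to 244845057, plus strand), had 62.2, 65.7 and 69.6 CPM in siBYSL and 77.3, 69.7 and 76.4 CPM in siNC. The groups all but touched. COX20 fell with a log2 fold change of -0.18 ± 0.063 (adjusted p 0.0469), and lost its call without siBYSL 1, siBYSL 2, siNC 1 or siNC 3 (adjusted p from 0.125 to 0.167), under library totals or upper-quartile factors (0.225 and 0.128), in the DESeq2 Wald test (0.0564) and with a stricter filter (0.0571).

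COX15, which makes heme A for the enzyme (chromosome 10, 99711844 to 99732100, minus strand), had 24.1, 25.6 and 23.0 CPM in siBYSL, against 21.0, 21.6 and 20.4 CPM in siNC. All siBYSL values were higher, with a log2 fold change of 0.21 ± 0.068 (adjusted p 0.0333). The call was lost without siBYSL 1, siBYSL 2 or any siNC library, with adjusted p from 0.0535 to 0.148, in the DESeq2 Wald test (0.069) and without a filter on low counts (0.0707). COX10, which makes the heme O that COX15 uses, was at 0.02 and not called, nor were the copper chaperones COX11, COX17 and COX19 at -0.04, 0.02 and -0.16. COX19 was called lower without siBYSL 3.

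Of the 10 structural subunits of complex IV tested, 0 were called in edgeR or limma-voom, 1 (COX6A1) was at an unadjusted p under 0.05, and DESeq2's Wald test called COX6A1 lower. Without siBYSL 3, edgeR called COX5A, COX6A1, COX6B1, COX7A2 and COX8A lower. Their log2 fold changes ran from -0.22 in COX6A1 to 0.18 in COX6C, with a median of -0.04, and COX4I1, which joins the core early in assembly, was at 0.01. Per kilobase of the principal annotated transcript, the highest member was COX8A, at 508.5 ± 87.3 CPM per kb in siBYSL and 574.4 ± 26.6 CPM per kb in siNC (SD, n = 3 each). Such levels are a guide, since the annotated transcript may be longer than the one expressed. The testis-restricted isoforms were scarce: COX7B2 had 1.91, 1.33 and 1.74 CPM in siBYSL and 2.22, 1.93 and 2.05 CPM in siNC, a log2 fold change of -0.33 ± 0.18 that was not called (adjusted p 0.184). COX6B2 had 1, 0 and 2 raw counts in siBYSL and 10, 2 and 2 in siNC, and COX8C had 2, 0 and 0 in siBYSL and 0, 0 and 1 in siNC. COX6B2 and COX8C were not tested.

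Differences between libraries of the same group ran through many members. The median log2 difference of the 57 members from the siNC mean was -0.20, -0.08 and 0.11 in siBYSL 1, 2 and 3, against 0.06, -0.08 and 0.01 in siNC 1, 2 and 3. The siBYSL medians thus bracketed those of siNC. Over all protein-coding genes tested, the same medians stayed between -0.016 and 0.005. TMM scaling itself holds these near 0, so they serve only as a reference level. Summed over the members, expression was 7713.5, 8289.6 and 9516.9 CPM in siBYSL, against 9458.7, 8615.6 and 9108.9 CPM in siNC, with overlapping groups. In such bulk libraries, fewer cells of a kind and less RNA per cell cannot be told apart.

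**Figure D3:**
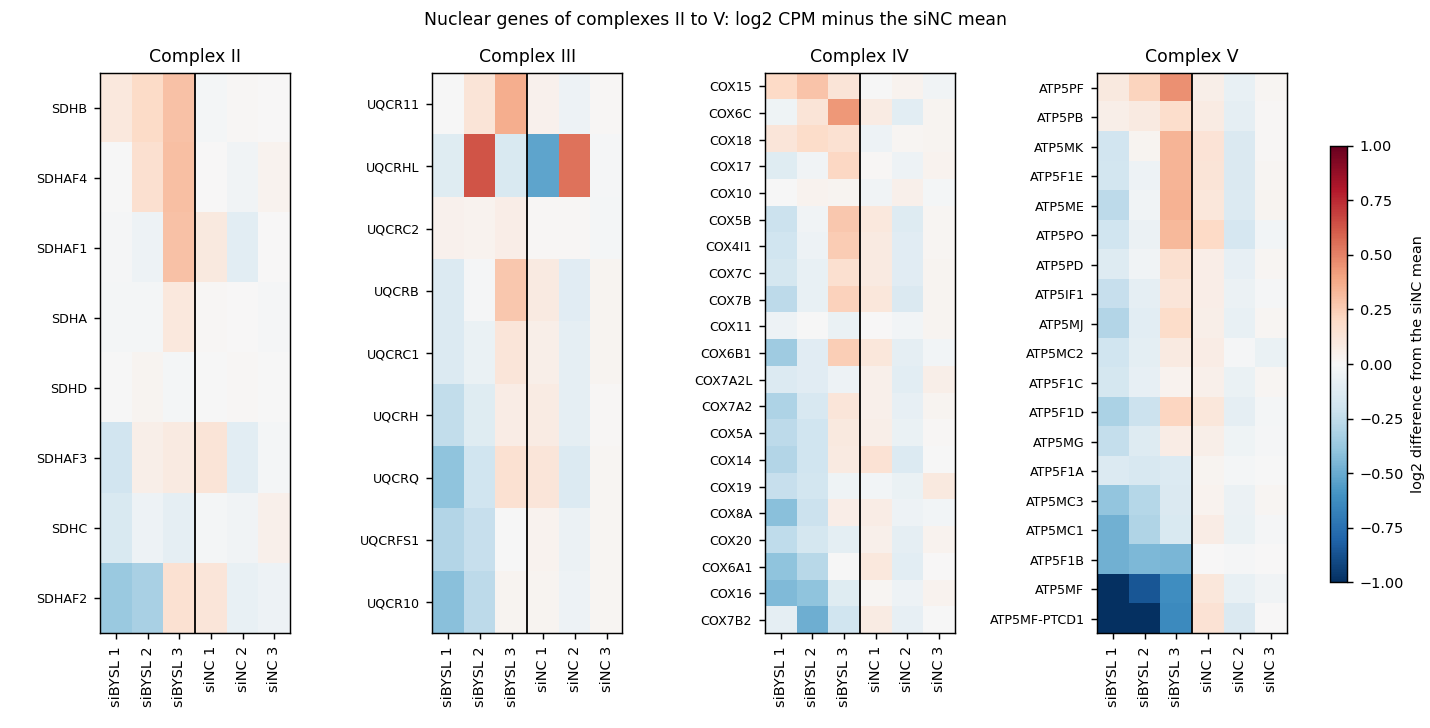
Log2 CPM minus the siNC mean for the 57 tested members, by complex, in each library, with siBYSL columns left of the line and siNC columns right of it; colours saturate at 1 and -1. siBYSL 1 is mostly blue and siBYSL 3 mostly red, with library medians of -0.20 and 0.11, while ATP5F1B, ATP5MF and ATP5MF-PTCD1 are blue in all 3 siBYSL columns.

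The within-group spread went with transcript length. The log2 ratio of siBYSL 3 to siBYSL 1 had a median of 0.319 over members and was above 0 in 52 of 57. Its Spearman correlation with transcript length across the 57 members was -0.515, and across the 13250 other protein-coding genes it was -0.498, around a median ratio of -0.04. In siNC, the ratio of library 1 to library 2 was above 0 in 51 of 57 members, with a correlation of -0.352, and -0.327 in other genes. These are descriptions across genes that share libraries and depth, not tests across samples. Among the 21 members whose transcripts are shorter than 1000 bases, medians were -0.29, -0.12 and 0.15 in siBYSL 1, 2 and 3, and 0.09, -0.09 and 0.01 in siNC 1, 2 and 3. The 714 other protein-coding genes of that length had medians of -0.20, -0.11 and 0.09 in siBYSL, and 0.06, -0.07 and 0.00 in siNC. In a fit with a length offset per library, chosen after seeing the data, all 11 called members passed, and 7 others joined them: COX6C, SDHAF4 and UQCR11 higher, and COX6A1, COX8A, SDHC and UQCR10 lower. Members were then higher in 6 and lower in 12 of 57, where 20.8% and 23.2% of 16232 genes were called in those directions, so the gain did not take members above the share over all genes.

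**Figure D4:**
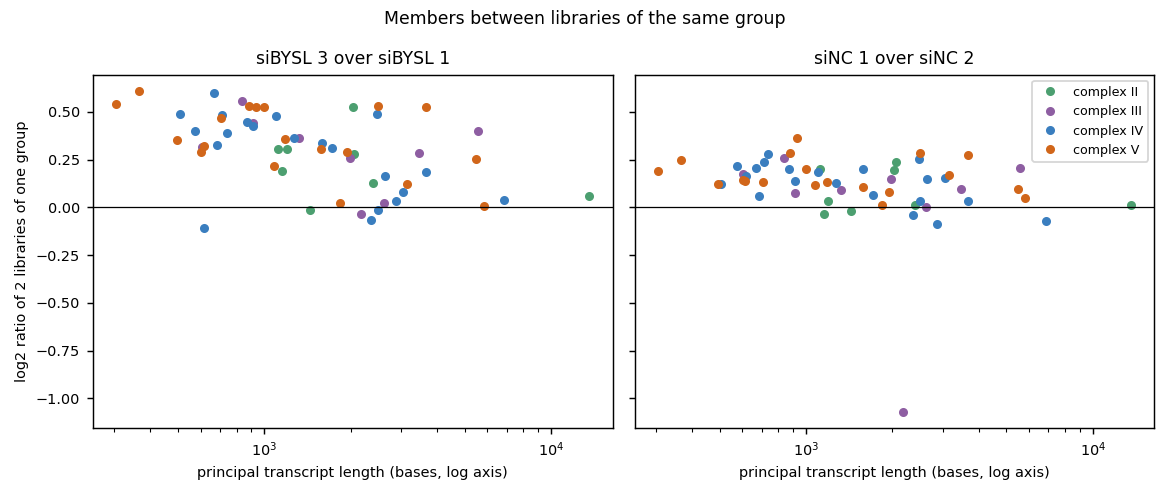
Log2 ratio of 2 libraries of the same group against transcript length on a log axis, 1 point per tested member, coloured by complex: siBYSL 3 over siBYSL 1 on the left, siNC 1 over siNC 2 on the right. Shorter transcripts have higher ratios in both panels, with Spearman correlations of -0.515 in siBYSL and -0.352 in siNC; the lowest point on the right is UQCRHL at -1.07.

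Removing siBYSL 3 changed the count of calls more than any other omission. Without it, 27 members were lower and 4 higher, where 24.3% and 23.5% of 16743 tested genes were called in those directions. The median log2 fold change was then -0.137. All 11 members called with 6 libraries stayed called, and 20 joined. Those that joined lower included COX6A1 at -0.34, UQCR10 at -0.34, SDHAF2 at -0.36, COX8A at -0.31 and UQCRFS1 at -0.26. COX18, an inserter of COX2 into the membrane, joined higher at 0.15. In complex V, ATP5F1C, ATP5F1D, ATP5IF1, ATP5MC2, ATP5MG and ATP5MJ joined, all lower. UQCRH and UQCRQ of complex III joined lower too. So did COX5A, COX6B1, COX7A2, COX7A2L, COX14 and COX19 of complex IV. With any siNC library or siBYSL 2 left out instead, 5 to 7 members were lower and 0 higher. Over all genes, those fits called 2105 to 2297 lower and 2121 to 2317 higher, of 16719 to 16793 tested.

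**Figure D5:**
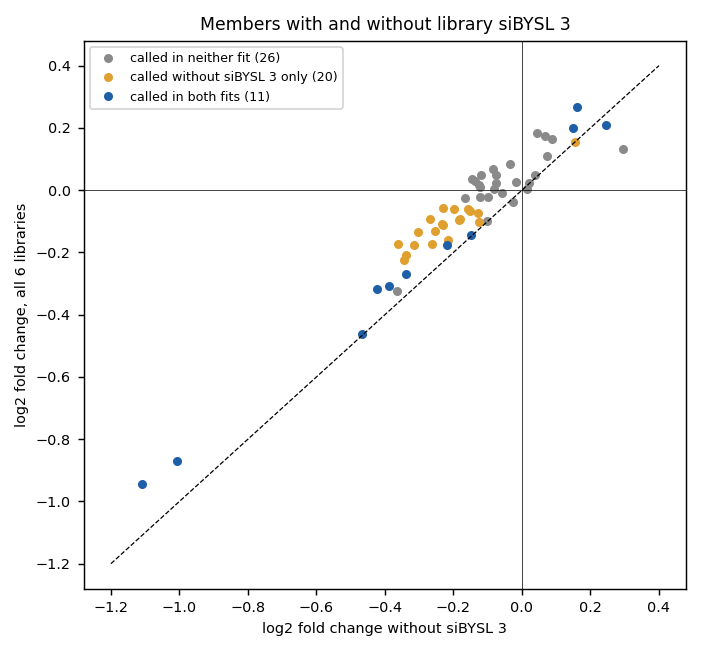
Log2 fold change of each tested member with all 6 libraries (vertical) against that without siBYSL 3 (horizontal), with a dashed line of equality; grey points were called in neither fit (26), orange without siBYSL 3 alone (20) and blue in both (11). Most points lie above the line, and ATP5F1B, at -0.46 with all libraries, lies on it.

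RefSeq promoter windows (GRCh38.p14, 250 bases before to 50 after the start) were matched for 49 of 60 members and searched on both strands for the NRF1 motif and the ETS motif CCGGAAG that GABP binds, since both factors are textbook regulators of nuclear respiratory genes. The NRF1 motif was in 15 of 49 (30.61%), against 8.57% of 15842 promoters of protein-coding genes and 6.28% of all 27305 promoters. The ETS motif was in 20 of 49 (40.82%), against 14.23% and 10.67% of those. Either motif was in 30 of 49 (61.22%), against 21.01% and 15.69%. Among called members, the ETS motif was in all 3 that were higher, and neither motif was in the 4 lower members with a window. Of 40 members not called, 17 held the ETS motif and 26 held either motif. With so few called members, a link between motif and direction was not tested. The other 4 lower members, ATP5F1B, ATP5MF, ATP5MF-PTCD1 and ATP5MC3, had no matched window. RefSeq and GENCODE starts differ for some genes, and the SDHB and ATP5PF windows lie within the gene spans given above. The 3 higher members are shown with the ETS motif in capitals, on the gene strand, because they share it.
COX15, chr10:99732118-99732145, minus: gctgcccgacCCGGAAGtgcttctcttt
SDHB, chr1:17054143-17054170, minus: acccgggaaaCCGGAAGccgcctcccac
ATP5PF, chr21:25735067-25735094, minus: gccaggggacCCGGAAGcacttaccctc

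Of 16 regulators of nuclear respiratory genes or of mitochondrial gene expression, 2 were higher and 4 lower in siBYSL. This is 37.5% and close to the 36.9% called over all genes. PPARGC1A, the coactivator of mitochondrial biogenesis, had 17.5, 17.5 and 15.0 CPM in siBYSL, against 8.44, 8.60 and 7.75 CPM in siNC, a log2 fold change of 1.01 ± 0.092 (adjusted p 1.96e-05). GABPB2, a GABP β subunit, rose by 0.51 on the log2 scale. GABPB1, the related β subunit, fell with a log2 fold change of -0.25, as did TFB1M at -0.28, ESRRA at -0.18 and the mitochondrial transcription factor TFAM at -0.21. These 4 lower calls were not stable: 0 regulators were lower under library totals or without any one of the siNC libraries, 1 under upper-quartile factors, 1 without siBYSL 1 and 2 without siBYSL 2. Lower calls over all genes dropped too, from 3027 to 1989 under library totals and to between 2105 and 2297 without a siNC library. NRF1 was at -0.14 (adjusted p 0.179) and GABPA at 0.20 (adjusted p 0.0585).

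Among 33 tested assembly factors outside the naming rule, 4 were higher and 6 lower, which is 30.3% and below the 36.9% over all genes. The lower ones were 3 under library totals or without siNC 1, and 11 without siBYSL 3. Over all genes, 1989 of 16412 were lower under library totals and 2252 of 16775 without siNC 1. Without siBYSL 3, 4075 of 16743 were lower (24.3%). HIGD1A, a partner of complex IV, had 116.3, 122.1 and 126.3 CPM in siBYSL, against 167.6, 158.3 and 168.2 CPM in siNC, a log2 fold change of -0.44. TTC19, which acts late on complex III, and COA1, a complex IV factor, were at -0.31 and -0.32. Those for complex V, TMEM70 and DMAC2L, were at -0.22 and -0.25, whereas FMC1, a factor of the F1 head, rose with a log2 fold change of 0.48. LYRM7, which delivers the Rieske protein to complex III, rose by 0.51, and COA8 by 0.38.

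Cytochrome c was higher, and cytochrome c1 was lower with a call that most single omissions ended. CYCS had 447.6 ± 7.97 CPM in siBYSL and 382.7 ± 12.2 CPM in siNC (SD, n = 3 each), a log2 fold change of 0.23 (adjusted p 0.0052). CYC1, the complex III subunit that hands electrons to it, had 146.6 ± 17.8 CPM in siBYSL and 177.3 ± 11.2 CPM in siNC, a log2 fold change of -0.27 (adjusted p 0.0231). Of the 6 mitochondrially encoded subunits of complexes III to V, MT-ATP8 was lower, with a log2 fold change of -0.27 (adjusted p 0.0438), and 0 were higher; MT-CO1 was at -0.13 (adjusted p 0.0703). Under library totals or upper-quartile factors, neither CYC1 nor MT-ATP8 passed. The CYC1 call was also lost without siBYSL 1, siBYSL 2, siNC 1 or siNC 3. Without siBYSL 2 or any siNC library, 0 of the mitochondrially encoded subunits were lower, while 3 were without siBYSL 3. Of 36 tested genes with complex I subunit symbols, 4 were higher and 5 lower (25.0% called, against 36.9% of all genes), with NDUFB10 at -0.81 and NDUFB3 at -0.64. The 5 include the read-through gene NDUFC2-KCTD14 at -0.34, while NDUFC2 itself was at 0.08 and not called. Without siBYSL 3, 19 of the complex I genes were lower, where 24.3% of all genes were.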

How the data were processed

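Poly(A) RNA of 6 cultures was sequenced as 150-nt paired-end strand-specific libraries, per the labels' protocols. The deposited values are raw counts per gene; HISAT2, DESeq2 and GRCh38.p13 appear in the submitters' processing notes without role or version. No source used here gives the counting tool, annotation or filters.

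Counts were filtered with filterByExpr, scaled with TMM factors, and compared by the edgeR 4.0.16 quasi-likelihood F test (robust, group only; limma 3.58.1, R 4.3.3), with Benjamini-Hochberg adjustment over all 16412 genes and a threshold of 0.05. The SE is the absolute log2 fold change over the square root of F. CPM use TMM-scaled totals, and log2 differences per library add 0.5 CPM. Ratios used exact permutation tests in SciPy 1.17.1. Such p-values describe the spread between 3 and 3 cultures of a single line. Coordinates, lengths and 3′ UTRs came from GENCODE 29, and promoters from RefSeq. Alternatives were other scalings and filters, DESeq2 1.42.0, limma-voom, a replicate block, each library left out and, added later, a length offset.

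The fit was tested on simulated data with known changes before use. It recovered 17 of 50 genes changed 1.25-fold, 39 of 50 changed 1.5-fold and 48 of 50 changed 2-fold. That simulation changed 200 genes, far fewer than were called in the data, so its recovery is only a guide to small changes. Named members were those called and the extremes of each complex. Members, lists and tests were chosen with earlier results of these data known. Reads shared with pseudogenes or overlapping genes could not be separated, and 24 members overlap a gene on the same strand. Pseudogenes were sought only by the member's symbol followed by P, which found them for 19 members. Copies under other names were not searched. Among the pseudogenes found, only those of SDHA held over 5% of their family's counts (8.49%).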

Additional observations from a re-analysis of the deposited data

How the results depend on the processing

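BYSL stayed lower under every alternative run, as did ATP5F1B, ATP5MF, ATP5MF-PTCD1, COX16 and ATP5MC3, each with its call; no named member changed direction. Members called higher, 3 as reported, were 7 under library totals and 6 with the length offset, and 0 to 5 with a library left out. Those called lower, 8 as reported, were 12 without a filter or with the length offset, and 5 to 27 with a library left out. Under library totals, assembly factors outside the rule lower were 3 (6 as reported), nuclear subunits and carriers lower 0 (1), mitochondrially encoded subunits lower 0 (1), regulators lower 0 (4) and complex I genes lower 3 (5). Upper-quartile factors gave 0, 0, 1 and 3 for the last 4 of these. Over all genes, lower calls were 1989 under library totals and 2418 under upper-quartile factors, beside 3027 as reported. Mitochondrially encoded subunits lower were also 2 without a filter, 0 with a stricter filter, 2 in limma-voom and 0 with the length offset, which gave 7 complex I genes higher (4). With a library left out, the ranges were 3 to 11 for assembly factors lower, 0 to 2 for carriers lower, 0 to 3 for mitochondrially encoded subunits lower, 2 to 4 and 0 to 4 for regulators higher and lower, and 2 to 5 and 3 to 19 for complex I genes higher and lower. Over all genes, the same omissions gave 2121 to 3929 higher and 2105 to 4075 lower. The cause was not tested.

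The replicate numbers did not pair the samples: deviations of same-numbered libraries correlated at -0.129, 0.06 and 0.011, and not every library correlated best with its own number. With the replicate block, 2 members were higher and 6 lower, without ATP5F1A, COX15 and COX20. Low counts left 3 members untested, and a p that misses the threshold does not show that a member kept its level.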
